A study of Mus musculus with 3 samples.

Results

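Dividing alveolar macrophages recovered by bronchoalveolar lavage are described here, as single cells that carried the mRNAs of the G2 and M phases of the cell cycle. They were chosen by a rule on their own counts. A barcode first had to hold at least 5000 unique molecular identifiers (UMIs, each standing for 1 captured mRNA molecule), at least 300 genes, at most 10% of UMIs from mitochondrial genes, and at least 3 of the 8 macrophage markers Marco, Siglecf, Krt79, Ear2, Atp6v0d2, Bhlhe41, Chil3 and Pparg. Of those, the cells were kept in which 12 genes of late cycle (Mki67, Top2a, Cdk1, Ccnb1, Ccnb2, Ccna2, Birc5, Ube2c, Cenpf, Cenpa, Tpx2 and Nusap1) together made up at least 0.1% of UMIs. The rule kept 174 of 3287 gated macrophages in filtered air, 116 of 2117 after 1 ppm ozone and 921 of 5440 after 1.5 ppm ozone, from 5307, 3233 and 7269 barcodes in the files. These 1211 cells are called dividing macrophages below, and the gated macrophages under 0.1% are called the other macrophages.

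Alveolar macrophages sit on the surface of the air sacs, take up surfactant and inhaled particles, and maintain their own number in the adult lung largely by local division. A cell that has copied its DNA in S phase passes through G2, in which cyclin A and then cyclin B activate the kinase Cdk1. In M phase the chromosomes are condensed, attached through kinetochores to a spindle of microtubules and separated once the anaphase-promoting complex marks cyclin B for breakdown. The mRNAs of this machinery accumulate late in the cycle and disappear after division, which is why they can be used to pick out cells in G2 and M.

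The cells came from wild-type C57BL/6J mice that were 12 weeks old and breathed either filtered air or ozone, at 1 ppm or 1.5 ppm, over 3 h. The airspaces of the right lung were washed 22 to 24 h after exposure ended, and the cells of 3 to 4 mice were pooled into 1 droplet library (10x Genomics 3' chemistry) per group. Each dose is therefore 1 library with no replicate, and mice cannot be told apart within it. No test between doses is possible. Intervals below are 95% intervals, exact except for ratios of shares (normal on the log scale), that cover counting error only, and a difference between libraries may belong to the dose, the pool of mice or the library.

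The dividing macrophages summed to 4129642 UMIs in air, 3380595 at 1 ppm and 23320704 at 1.5 ppm. Their median depth per cell was 23269, 27172 and 22717 UMIs, against 13687, 15837 and 12544 in the other macrophages, so a dividing cell held 1.70, 1.72 and 1.81 times as many UMIs. Levels are given as CPM, the summed UMIs of a gene per 1e6 summed UMIs of the same cells. CPM is a share of a cell's mRNA, and a gene with a lower CPM in dividing cells can still have as many copies per cell. The median share of mitochondrial UMIs in dividing macrophages was 3.92% in air, 3.79% at 1 ppm and 2.29% at 1.5 ppm, close to 4.12%, 3.98% and 2.29% in the other macrophages. Of the gated barcodes, 9 appeared in more than 1 library, and 0 of the dividing macrophages did.

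Dividing macrophages were 5.29% of gated macrophages in air, with an interval of 4.55% to 6.11%. They were 5.48% after 1 ppm (4.55% to 6.54%) and 16.9% after 1.5 ppm (15.9% to 18.0%). The share at 1.5 ppm was 3.20 times that in air (2.74 to 3.74), and the share at 1 ppm was 1.04 times that in air (0.824 to 1.30). The 1.5 ppm library thus stood apart from the other libraries, whose intervals overlapped. With each cell thinned to 5000 UMIs, so that deeper cells had no better chance of passing, the shares were 5.72%, 5.67% and 17.1%. The share covers cells that were washed out and captured, and more dividing cells cannot be told apart from fewer recovered non-dividing ones.

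**Figure D1:**
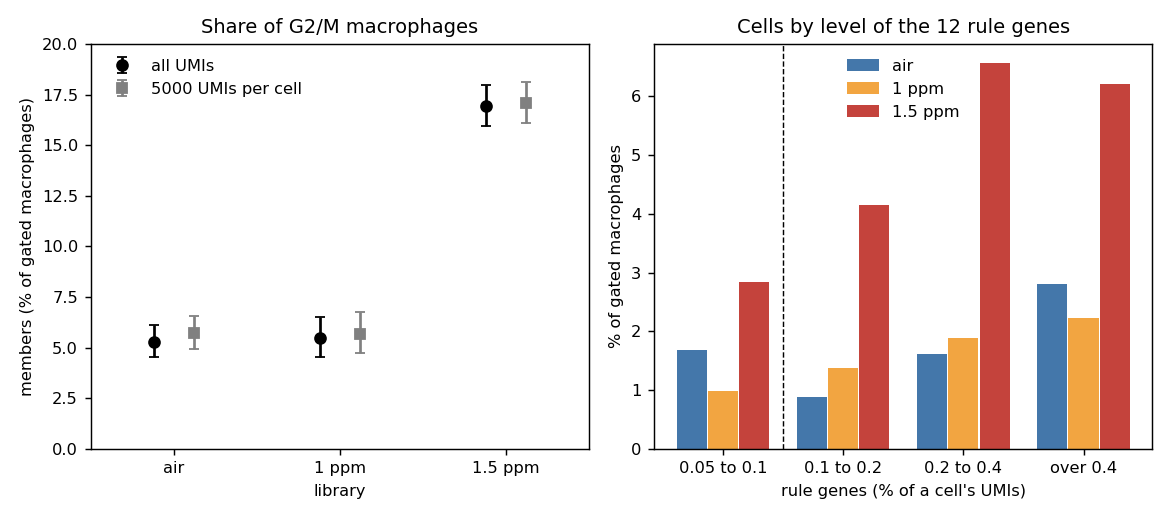
Left, dividing macrophages as a percentage of gated macrophages in each library, with all UMIs and with each cell thinned to 5000 UMIs; error bars are 95% counting intervals. Right, the percentage of gated macrophages at each level of the 12 late-cycle genes, with a dashed line at the 0.1% threshold. The 1.5 ppm library, at 16.9%, lies above both other libraries, at 5.29% and 5.48%.

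The 12 late-cycle genes varied widely among the cells they selected. Their summed share had a median of 0.413% of UMIs in air, 0.338% at 1 ppm and 0.327% at 1.5 ppm, and reached 0.948%, 1.04% and 1.16%. In air 92 of the 174 dividing cells were above 0.4%, at 1 ppm 47 of 116, and at 1.5 ppm 338 of 921. Few cells sat close to the threshold. Between 0.1% and 0.11% there were 2, 6 and 36 cells, with a median of 18, 25 and 21 UMIs from the 12 genes. Just below it, between 0.09% and 0.1%, there were 12, 4 and 20 cells, with 16, 15 and 24.5 UMIs. Of the other macrophages 56.5%, 60.5% and 47.9% held no UMI of the 12 genes.

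The markers of the label were high in all 3 libraries, as the rule requires. Mki67, which coats mitotic chromosomes, was at 621, 564 and 629 CPM in air, 1 ppm and 1.5 ppm. Top2a, the topoisomerase that untangles sister chromatids, was at 917, 707 and 697 CPM. Ccnb1, the cyclin that carries Cdk1 into mitosis, was at 123, 128 and 81.5 CPM. Ube2c, the ubiquitin-conjugating enzyme of the anaphase-promoting complex, was at 413, 367 and 317 CPM, and Cenpf, a kinetochore protein, at 296, 280 and 251 CPM. In the other macrophages Ccnb1 was at 1.38, 1.26 and 2.02 CPM and Cenpf at 1.53, 0.847 and 2.71 CPM. Of the macrophage markers, Chil3, a chitinase-like protein, was at 7478, 8267 and 5346 CPM in the dividing cells and Pparg, the regulator of alveolar macrophage identity, at 606, 424 and 451 CPM. All of these values chose the cells and support nothing further.

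Most of the selected cells also carried S phase mRNAs, so the rule did not pick only cells low in them. Whether these cells were still in S phase or already in G2 was not measured. A list of 32 DNA replication genes made up at least 0.1% of UMIs in 154 of 174 dividing macrophages in air (88.5%), 86 of 116 at 1 ppm (74.1%) and 822 of 921 at 1.5 ppm (89.3%). Among the other macrophages the same held for 14.3%, 10.8% and 19.6%. The 20, 30 and 99 dividing cells below that mark carried little Rrm2, the small subunit of ribonucleotide reductase, at 13.2, 17.5 and 8.90 CPM, against 372, 295 and 193 CPM in the rest of the dividing cells. They carried more Ccnb2, a second B-type cyclin, at 388, 399 and 250 CPM against 200, 182 and 119 CPM. Cdc20, the activator of the anaphase-promoting complex, was at 128, 126 and 70.7 CPM in them, against 87.8, 80.5 and 40.1 CPM. Other late-cycle genes were lower in these cells. Ccna2, the A-type cyclin, was at 128, 115 and 85.5 CPM against 232, 205 and 139 CPM, and the mitotic kinase Aurka at 23.0, 36.7 and 29.7 CPM against 61.7, 63.4 and 43.3 CPM. Plk1, another mitotic kinase, was at 49.3, 64.7 and 46.0 CPM against 92.8, 88.3 and 54.1 CPM. Ccnb1 was lower in air and at 1 ppm, at 95.4 and 114 CPM against 125 and 131 CPM, and higher at 1.5 ppm, at 114 against 78.4 CPM. The dividing cells low in replication mRNAs were thus not higher in all mitotic genes.

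Several late-cycle genes are known to be switched by a promoter element called CHR, with the letters TTTGAA, which is bound by the DREAM and MuvB complexes. The 120 bases before the start site of 5 rule genes, and of Samhd1, a gene lower in dividing macrophages, are shown so that the element can be seen in place. They come from the RefSeq promoter table of mouse build GRCm38.p6, which is not the build of the count files. Capitals mark TTTGAA or its reverse complement TTCAAA, and TTCGAA.
Mki67: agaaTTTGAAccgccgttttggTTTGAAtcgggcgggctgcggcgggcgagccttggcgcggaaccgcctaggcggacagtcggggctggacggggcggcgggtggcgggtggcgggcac
Top2a: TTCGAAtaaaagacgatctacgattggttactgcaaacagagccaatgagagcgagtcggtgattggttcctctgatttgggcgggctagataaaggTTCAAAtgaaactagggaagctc
Cdk1: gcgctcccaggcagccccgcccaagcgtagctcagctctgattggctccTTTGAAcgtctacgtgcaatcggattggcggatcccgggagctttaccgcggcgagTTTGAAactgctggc
Ube2c: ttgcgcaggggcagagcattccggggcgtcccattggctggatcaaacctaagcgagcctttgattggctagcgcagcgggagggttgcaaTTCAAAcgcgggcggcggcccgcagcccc
Ccnb1: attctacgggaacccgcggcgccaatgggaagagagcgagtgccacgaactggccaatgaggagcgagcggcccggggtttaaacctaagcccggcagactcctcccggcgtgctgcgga
Samhd1: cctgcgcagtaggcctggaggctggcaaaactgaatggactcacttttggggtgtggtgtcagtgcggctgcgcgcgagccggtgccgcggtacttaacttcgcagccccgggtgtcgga

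The Mki67 stretch lies at chr7:135716380-135716499 (minus strand), Top2a at chr11:99024190-99024309 (minus), Cdk1 at chr10:69352913-69353032 (minus), Ube2c at chr2:164769809-164769928 (plus), Ccnb1 at chr13:100786487-100786606 (minus) and Samhd1 at chr2:157135097-157135216 (minus). Cdk1 had TTTGAA beginning 71 and 15 bases before the start, Mki67 at 116 and 98, Ube2c at 29 and Top2a at 23, in Ube2c and Top2a on the opposite strand. Neither Ccnb1 nor Samhd1 had these letters in the window. Of the 12 rule genes 10 were in the table (Ccna2 and Tpx2 were not matched), and 5 of those held TTTGAA on either strand within 250 bases, with 3 within 50 bases. For the spindle and cytokinesis genes the counts were 11 of 23 within 250 bases and 7 within 50, and for the S phase genes 3 of 25 and 0. Kinetochore and checkpoint genes had 2 of 17 and 2, mitotic exit genes 4 of 12 and 3, and condensin genes 11 of 20 and 5. Histone genes had 7 of 12 and 1, and tubulin and actin genes 3 of 14 and 1. Of 229 matched genes higher in dividing macrophages outside the cell cycle lists (below), 40 and 13 held it. Of 70 matched lower genes outside those lists, 4 and 0 did. The element thus did not set all G2 and M lists apart. These counts are per gene, where any promoter of the gene could hold the letters. Over all 27025 genes in the table the shares were 18.3% within 250 bases and 3.09% within 50. TTCGAA within 250 bases was in 1.55%. Over the 3254 matched genes of those compared between the cell classes below, the TTTGAA shares were 12.6% and 2.27%. A match of letters is a description and not evidence of binding.

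Dividing macrophages were then compared with the other macrophages of their own library, over the 4002 genes at 50 CPM or more in either class in every library. A gene was counted when it differed by at least 1.5-fold in the same direction in all 3 libraries. The contrast is the one the rule was made on, so the counts describe the cells and were not tested. By this measure 387 genes were higher (9.67% of those considered) and 85 were lower (2.12%). Of the 387, 110 belonged to 8 cell cycle gene lists and 277 did not. The imbalance depends on the scale, since by UMIs per cell 1989 genes passed 1.5-fold upward and 0 downward. When the other macrophages were weighted to the depth distribution of the dividing ones, 361 were higher and 36 lower on the CPM scale.

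Many of the genes furthest above the other macrophages outside the lists are nevertheless known for division. Esco2, which acetylates cohesin so that sister chromatids hold together, was at 114 CPM in air, 103 at 1 ppm and 110 at 1.5 ppm, against 0.939, 0.467 and 2.59 CPM. Its level in dividing cells was 122 times that of the others in air (89.0 to 171). The ratio was 220 after 1 ppm (134 to 390) and 42.5 after 1.5 ppm (36.4 to 49.9). Kif14, a kinesin of the dividing cell's midbody, was at 78.0, 56.5 and 52.7 CPM against 0.218, 0.409 and 0.867 CPM. E2f8, an E2F factor that represses genes of the G1 to S transition, was at 82.3, 69.2 and 70.5 CPM against 1.14, 1.14 and 2.60 CPM. Neil3, a DNA glycosylase that opens crosslinks at stalled replication forks, was at 258, 154 and 157 CPM against 3.36, 2.63 and 6.43 CPM. In the dividing cells low in replication mRNAs the log2 difference nearest 0 was 1.77 for Esco2 and 0.58 for E2f8, and it turned to -0.0405 for Neil3. With all dividing cells, each of these 4 genes was more than 20-fold higher in dividing cells in each library, and each ratio was lowest at 1.5 ppm, where the level in the other macrophages was highest. Cdca3, Depdc1a, Ska1, Cdca2, Shcbp1 and Ccnf also stood among the 12 highest by the naming rule, with log2 differences between 4.36 and 7.68 over the libraries.

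Sdk1 and Lockd, the other 2 of the 12, are not known as parts of the mitotic machinery. Sdk1 encodes sidekick cell adhesion molecule 1, a surface protein of the immunoglobulin superfamily known from synapses in the retina. It was at 372 CPM in the dividing macrophages in air, 172 at 1 ppm and 176 at 1.5 ppm, against 1.88, 2.28 and 5.01 CPM in the others. The ratio in air was 198 (160 to 250), that after 1 ppm 75.6 (59.6 to 97.0) and that after 1.5 ppm 35.2 (31.4 to 39.4). Sdk1 climbed with the late-cycle score in air, from 19.8 CPM in cells at 0.05 to 0.1% to 485 CPM in cells above 0.4%, and the cells above 0.4% were also the highest at 1 ppm (271 CPM) and 1.5 ppm (254 CPM). Lockd, a long noncoding RNA from just downstream of the CDK inhibitor gene Cdkn1b, was at 274, 169 and 176 CPM against 3.60, 2.95 and 6.76 CPM. The sources used here do not say whether intronic reads and strand were used in the counting, which bears on long genes such as Sdk1 and on noncoding RNAs beside other genes.

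Among the genes lower in dividing macrophages, Samhd1 stood with Mxd4, Ccnd2, Adgre1 and Txnip in the 12 lowest by the naming rule. Samhd1 encodes the dNTP hydrolase that keeps DNA precursors low outside S phase and so limits DNA synthesis. It was at 108 CPM in air, 120 at 1 ppm and 135 at 1.5 ppm, against 313, 263 and 254 CPM in the other macrophages. The ratio was 0.345 (0.313 to 0.379), 0.454 (0.410 to 0.502) and 0.533 (0.513 to 0.554). Counted per cell, dividing macrophages held 2.56, 3.48 and 3.43 Samhd1 UMIs against 4.60, 4.50 and 3.76, so Samhd1 was lower per cell too, in all 3 libraries. A lower count per cell in all 3 libraries held for 25 of the 85 lower genes. In the dividing cells low in replication mRNAs Samhd1 was at 191, 157 and 204 CPM, closer to the other macrophages than in the rest of the dividing cells, at 101, 112 and 129 CPM.

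Mxd4, a Max partner that opposes Myc at its target genes, was at 22.5, 22.2 and 32.5 CPM against 67.4, 65.1 and 68.5 CPM. The ratios were 0.334 (0.269 to 0.411), 0.341 (0.267 to 0.429) and 0.474 (0.439 to 0.512). Ccnd2, a D-type cyclin that acts in G1 with Cdk4 and Cdk6, was at 136, 120 and 112 CPM against 306, 263 and 224 CPM. Unlike Samhd1, it was highest in cells with replication mRNAs that had not reached the late-cycle threshold, at 423, 370 and 246 CPM, above the non-cycling macrophages at 283, 246 and 217 CPM. Adgre1, which encodes the macrophage surface antigen F4/80, was at 101, 104 and 91.1 CPM against 220, 213 and 182 CPM. In the dividing cells low in replication mRNAs Adgre1 was at 194, 147 and 106 CPM, a log2 difference nearest 0 of -0.15. Txnip, an inhibitor of thioredoxin and of glucose uptake, was at 331, 307 and 322 CPM against 648, 699 and 598 CPM. Mxd4, Ccnd2, Adgre1 and Txnip were each below the level of the other macrophages in all 3 libraries.

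The remaining named lower genes were Erc2, Zbtb4, Gpr155, Pik3ap1, Kcnq1ot1, Maml3 and Klra2, with log2 differences from -0.88 to -1.54. With only the dividing cells low in replication mRNAs the difference nearest 0 was -0.23 for Zbtb4, -0.34 for Pik3ap1, -0.36 for Gpr155, -0.56 for Kcnq1ot1, -0.31 for Samhd1 and -0.39 for Txnip, each inside 1.5-fold. Klra2 belongs to a family of near-identical receptors and Kcnq1ot1 is transcribed antisense to Kcnq1, so reads of both could be shared with a neighbour or copy. With the other macrophages weighted to the same depth, 11 of the 12 named lower genes and 34 of the 85 stayed past 1.5-fold, and Gpr155 did not. Among the 34 were Jund, an AP-1 subunit, and Tob1, an antiproliferative BTG family protein, both chosen for mention after their values were seen.

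**Figure D2:**
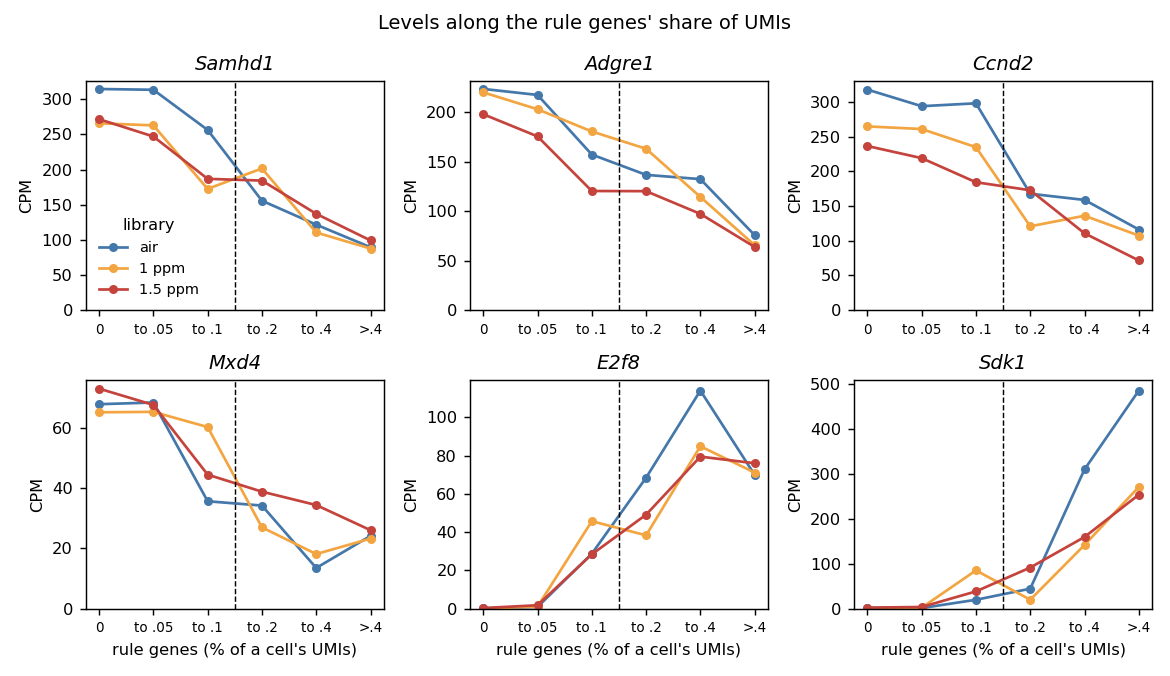
CPM of Samhd1, Adgre1, Ccnd2, Mxd4, E2f8 and Sdk1 (vertical axes) in 6 bins of the summed late-cycle share of UMIs (horizontal axes), with 1 line per library and a dashed line at the 0.1% threshold. Samhd1 in air goes from 315 CPM in cells with no late-cycle UMI to 89.4 CPM in cells above 0.4%, and Adgre1 from 224 to 75.8 CPM.

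Samhd1 and Adgre1 were lowest in the cells with the highest late-cycle score in each library. Samhd1 in air was at 315 CPM in cells with no late-cycle UMI, 256 CPM at 0.05 to 0.1%, 122 CPM at 0.2 to 0.4% and 89.4 CPM above 0.4%. At 1.5 ppm the same bins held 272, 187, 137 and 99.1 CPM, whereas at 1 ppm the level was 172 CPM at 0.05 to 0.1% and 202 CPM at 0.1 to 0.2%. Adgre1 went from 224 CPM with no late-cycle UMI to 75.8 CPM above 0.4% in air, from 220 to 65.6 CPM at 1 ppm and from 198 to 63.9 CPM at 1.5 ppm. Not every lower gene followed that order, since Erc2 in air was at 56.4, 65.0 and 80.9 CPM in the 3 bins above the threshold. Median depth also went up along these bins, from 12762 to 25044 UMIs in air, 14877 to 29170 at 1 ppm and 11481 to 23107 at 1.5 ppm, and its part in the gradient was not tested beyond the weighting above. E2f8 was at 28.7 CPM in air at 0.05 to 0.1%, 114 CPM at 0.2 to 0.4% and 69.9 CPM above 0.4%.

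Other macrophages with the replication list at 0.1% of UMIs or more, called S phase cells here, numbered 445, 216 and 887. On the genes called above they stood between the dividing and the non-cycling macrophages. The replication list itself had a median of 0.196%, 0.194% and 0.194% of UMIs in them. In dividing cells it was higher, at 0.499%, 0.389% and 0.469%. Against the non-cycling cells, the 84 lower genes outside the cell cycle lists had a median log2 difference of -0.21, -0.22 and -0.20 in S phase cells, and of -0.81, -0.93 and -0.80 in dividing cells. The 277 higher genes outside the lists had medians of 0.67, 0.79 and 0.66 in S phase cells and 1.64, 1.39 and 1.30 in dividing cells. The lists and these genes were chosen from the same cells, so the medians only place the S phase cells on that scale.

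Among the fixed gene lists, 19 genes of the G1 cyclin and CDK inhibitor list were measured, which also holds CDK, Rb and E2F genes. Of these, 11 were at least 1.5-fold higher in dividing macrophages of all 3 libraries and 3 were lower. Of all 6801 genes measured by the lists' filter, 654 were as far higher in all 3 libraries and 147 lower. Above 0 in all 3 libraries were 2440 of them, and 2814 were below 0. The list median was 1.22, 1.31 and 1.01 on the log2 scale, against -0.01, -0.02 and -0.05 for all 6801 genes measured by the lists' filter, but it turned to -0.0936 in the library nearest 0 when only dividing cells low in replication mRNAs were used. Cdkn2c, which encodes the Cdk4 and Cdk6 inhibitor p18, was at 91.5, 71.3 and 55.8 CPM against 2.29, 2.34 and 3.06 CPM. Cdkn1a, the p53 target that encodes the CDK inhibitor p21, was at 270, 202 and 298 CPM against 85.3, 73.1 and 126 CPM. Both inhibitors were thus at higher levels in the cells that were dividing. The 3 lower members were Ccnd2, Ccnd3 and Btg2. Ccnd3, the third D-type cyclin, was at 174, 157 and 146 CPM against 346, 332 and 230 CPM, and Btg2, an antiproliferative p53 target, at 56.7, 63.6 and 61.8 CPM against 113, 110 and 112 CPM.

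Genes of ribosome assembly and nucleotide synthesis were partly higher in dividing macrophages, with 8 of 22 measured genes past 1.5-fold in all 3 libraries and 0 lower. Their medians were 0.43, 0.44 and 0.32 (-0.0729 in the library nearest 0 with only the dividing cells low in replication mRNAs). Ran, the GTPase of nuclear transport and spindle assembly, was at 552, 650 and 730 CPM against 186, 194 and 300 CPM. Impdh2, the rate-limiting enzyme of guanine nucleotide synthesis, was at 78.7, 95.5 and 76.1 CPM against 29.4, 35.1 and 35.6 CPM. Proteasome genes were above 0 in all 3 libraries in 18 of 20 cases, with medians of 0.27, 0.39 and 0.18 and 0 past 1.5-fold. Nuclear oxidative phosphorylation genes were above 0 in 17 of 24, with medians of 0.15, 0.31 and 0.15. Of all 6801 genes measured by the lists' filter, 2440 were above 0 in all 3 libraries and 654 past 1.5-fold.

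The histone list held the 1 lower gene of the 8 cell cycle lists. These hold 159 genes and do not include the G1 cyclin and CDK inhibitor list. H1f5, a linker histone, was at 307, 382 and 596 CPM in dividing macrophages against 1.48, 1.93 and 7.49 CPM, and 9 of 11 measured histone genes were higher. H2bc4 was at 19.1, 31.7 and 39.4 CPM against 98.4, 76.8 and 143 CPM. Most replication-dependent histone mRNAs have no poly(A) tail, and a library primed on that tail sees only their minor polyadenylated forms. Histone genes have near-identical copies, so their reads may be split between genes.

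**Figure D3:**
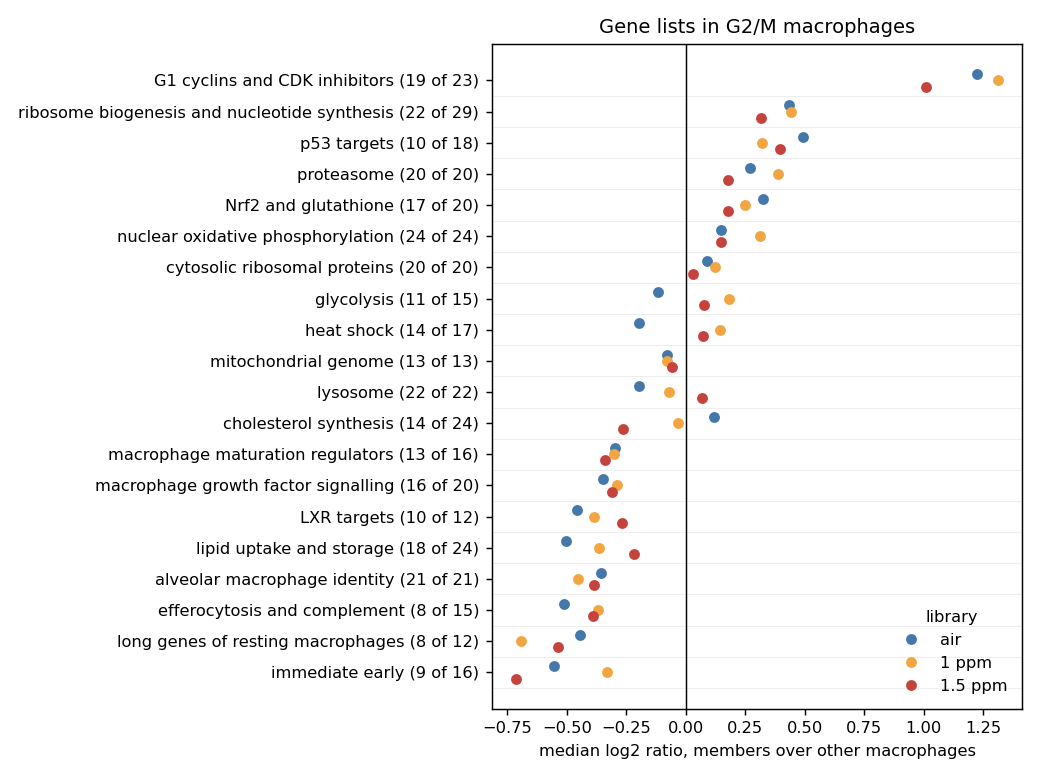
Median log2 difference in CPM between dividing and other macrophages (horizontal axis) for 20 gene lists (vertical axis), with 1 point per library. The G1 cyclin and CDK inhibitor list lies above 0 at 1.01 to 1.31, although its D-type cyclins Ccnd2 and Ccnd3 were lower. The macrophage identity list lies below 0 at -0.36 to -0.45. With only the dividing cells low in replication mRNAs the G1 cyclin and CDK inhibitor list turns to -0.0936. By UMIs per cell the identity list turns to 0.32, and the growth factor, maturation, LXR, lipid, efferocytosis and immediate early lists also turn above 0.

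Genes that mark alveolar macrophages took a smaller share of mRNA in dividing cells. Of 21 identity genes, 17 were below 0 in all 3 libraries and 2 were past 1.5-fold. Of all 6801 genes measured by the lists' filter, 2814 and 147 were. The identity medians were -0.36, -0.45 and -0.39, but per cell the median nearest 0 turned to 0.32. With only the dividing cells low in replication mRNAs it was -0.0890. Ear2, an eosinophil-associated ribonuclease abundant in these cells, was at 651, 600 and 410 CPM against 1030, 1129 and 727 CPM. Its ratio was 0.633 (0.608 to 0.658), 0.531 (0.508 to 0.556) and 0.564 (0.552 to 0.577), while UMIs per cell were 15.5, 17.5 and 10.4 against 15.2, 19.3 and 10.8. Dividing macrophages therefore held about as many Ear2 molecules per cell among more molecules in all. Mrc1, the mannose receptor, was at 869, 802 and 769 CPM against 1427, 1286 and 1129 CPM, and Fabp1, a fatty acid binding protein, at 210, 148 and 153 CPM against 330, 321 and 333 CPM.

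Marco, a scavenger receptor for particles and bacteria, went the other way. It was at 198, 254 and 203 CPM in dividing macrophages against 154, 134 and 124 CPM. The ratios were 1.28 (1.19 to 1.38), 1.89 (1.75 to 2.03) and 1.64 (1.58 to 1.70). At 1 ppm 1 cell held 13.8% of the Marco UMIs of dividing macrophages. Per cell there were 4.69, 7.40 and 5.13 Marco UMIs against 2.27, 2.30 and 1.83. In the S phase cells Marco was at 244, 270 and 154 CPM, against 136, 113 and 114 CPM in the non-cycling macrophages. Its higher level was thus not particular to the dividing cells. Marco and Ear2 are both among the 8 markers of which 3 were required, so a cell could pass without either.

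The medians of the growth factor and maturation lists were below 0 as shares of UMIs and above 0 per cell. With only the dividing cells low in replication mRNAs they were -0.0950 and -0.0187 in the library nearest 0. In the growth factor signalling list, 11 of 16 measured genes were below 0 in all 3 libraries and 0 above. Of all 6801 genes measured by the lists' filter, 2814 were below and 2440 above. The growth factor medians were -0.35, -0.29 and -0.31 (0.34 nearest 0 per cell). Csf2rb, the shared signalling chain of the GM-CSF receptor on which alveolar macrophages depend, was at 188, 241 and 225 CPM against 273, 289 and 300 CPM. Per cell it was at 4.47, 7.03 and 5.71 UMIs against 4.01, 4.94 and 4.44. Cish, a feedback inhibitor induced by STAT5 signalling, was the 1 member past 1.5-fold, at 22.3, 10.1 and 14.0 CPM against 40.8, 24.9 and 27.2 CPM. It was lower per cell as well, at 0.529, 0.293 and 0.354 UMIs against 0.601, 0.425 and 0.403. In the maturation list 8 of 13 were below 0 in all 3 libraries, with medians of -0.30, -0.30 and -0.34 (0.39 per cell). Cebpa, a myeloid transcription factor that restrains proliferation, was past 1.5-fold at 147, 112 and 68.2 CPM against 232, 189 and 118 CPM.

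Lists for lipid handling, clearance of dead cells and immediate early genes had the same form. Of all 6801 genes measured by the lists' filter, 2814 were below 0 in all 3 libraries. Lipid uptake and storage genes were below 0 in all 3 libraries in 13 of 18 cases, with medians of -0.50, -0.37 and -0.22 (0.18 nearest 0 per cell and 0.00655 with only the cells low in replication mRNAs). LXR targets were below 0 in 6 of 10, with medians of -0.46, -0.38 and -0.27 (0.23 per cell and 0.00363 with the cells low in replication mRNAs). Efferocytosis and complement genes were below 0 in 7 of 8, with medians of -0.51, -0.37 and -0.39 (0.18 per cell and -0.11 with the cells low in replication mRNAs). Mertk, a receptor for dying cells, was at 624, 455 and 478 CPM against 954, 851 and 707 CPM. Immediate early genes were below 0 in 8 of 9, with medians of -0.55, -0.33 and -0.71 (0.0607 nearest 0 per cell). Jund was at 187, 176 and 253 CPM against 377, 311 and 469 CPM, and also lower per cell, at 4.45, 5.13 and 6.41 UMIs against 5.55, 5.33 and 6.94.

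Dividing macrophages of the ozone libraries were next set against those in air, over genes with 50 CPM in either library and 100 UMIs in all. After 1.5 ppm, 34 of 4429 genes stood 2-fold or more above air (0.768%) and 31 as far below it (0.7%). After 1 ppm, 8 of 4428 were higher (0.181%) and 18 lower (0.407%). The rule did not use differences between libraries, although it set a minimum on the summed level of the 12 late-cycle genes in each. The median of the genes considered was -0.15 at 1.5 ppm and -0.11 at 1 ppm on the log2 scale, so a gene at 0 stood slightly above the middle. Both comparisons share the air library. The 34 higher genes had a median of 1.23 in dividing macrophages, in which they were chosen, and 0.97 in the other macrophages. The mitochondrial share of UMIs was lower at 1.5 ppm (above). In cells of 2.5 to 4% mitochondrial UMIs, 26 of the 34 and 21 of the 31 remained past 2-fold, and 56 genes in all were lower.

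At 1.5 ppm the named higher genes were fatty acid binding proteins, chaperones and Car4. Fabp5, a cytosolic fatty acid binding protein, was at 566 CPM in dividing macrophages in air, 758 at 1 ppm and 2046 at 1.5 ppm. The ratio at 1.5 ppm was 3.61 (3.47 to 3.77), against 1.98 (1.96 to 2.01) in the other macrophages. Fabp4, its relative induced by PPARgamma, was at 115, 136 and 361 CPM, a ratio of 3.14 (2.86 to 3.45), against 1.45 (1.41 to 1.49). Both genes were thus further above air in the dividing cells of the 1.5 ppm library than in the other cells of that library. Their log2 differences were 1.85 and 1.65, and 1.51 and 1.26 in the cells of 2.5 to 4% mitochondrial UMIs.

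Chaperones of the cytosol and the endoplasmic reticulum were higher in dividing macrophages at 1.5 ppm. Of 16 measured heat shock genes 15 were above air and 4 at least 2-fold, with a median of 0.78 against 0.76 in the other macrophages. Of the 11189 genes measured by the lists' filter in dividing macrophages, 3993 were above air and 271 at least 2-fold, with a median of -0.14. Hsph1, a nucleotide exchange factor of Hsp70, was at 27.4, 23.1 and 87.6 CPM, a ratio of 3.20 (2.65 to 3.90). Dnaja1, an Hsp70 partner, was at 109, 120 and 325 CPM. In the unfolded protein response list 12 of 15 were above air and 4 at least 2-fold, with a median of 0.64, against 0.33 in the other macrophages. Hspa5, the main chaperone of the endoplasmic reticulum, was at 187, 302 and 529 CPM in dividing cells and 350, 366 and 677 CPM in the others. Dividing cells were thus lower than the others in each library, with a log2 difference between 1.5 ppm and air of 1.50 against 0.95. Sdf2l1, a partner of Hspa5, was at 46.7, 89.6 and 147 CPM, a ratio of 3.14 (2.72 to 3.65).

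**Figure D4:**
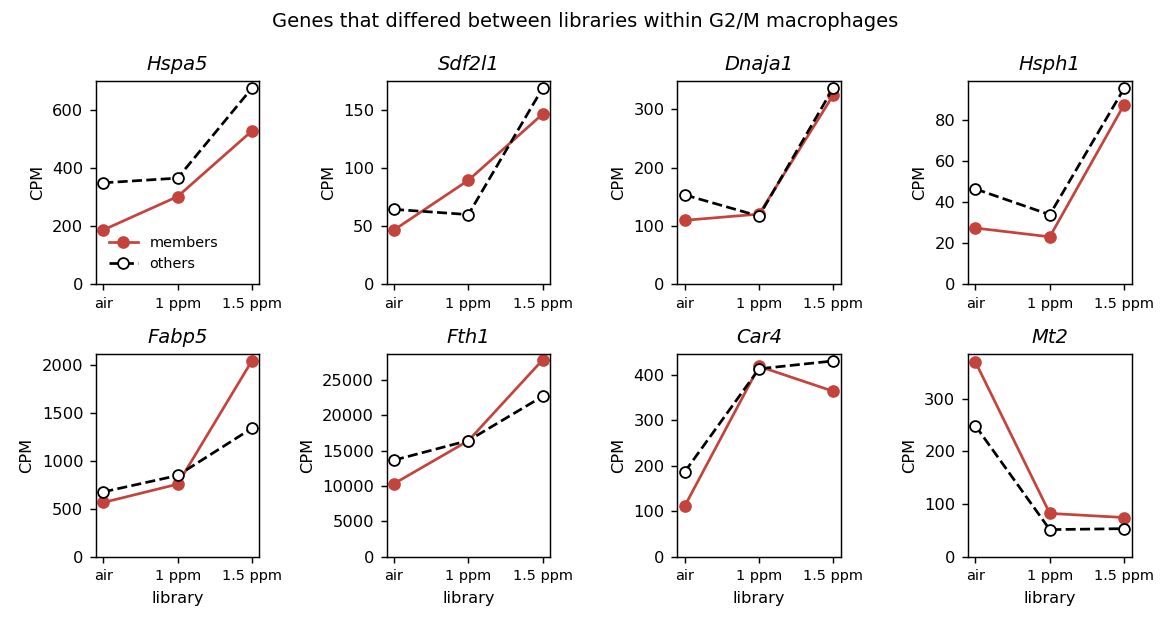
CPM of 8 genes (vertical axes) in the air, 1 ppm and 1.5 ppm libraries (horizontal axes), with dividing macrophages as solid lines and other macrophages as dashed lines. Fabp5 in dividing macrophages goes from 566 to 2046 CPM between air and 1.5 ppm, while Mt2 goes from 370 to 74.4 CPM.

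Iron storage and metallothionein genes went in opposite directions. Fth1, the ferritin heavy chain, was at 10337, 16416 and 27862 CPM in dividing macrophages, a log2 difference at 1.5 ppm of 1.43, against 0.73 in the others. Ftl1, the light chain, was at 6464, 9410 and 13052 CPM, a difference of 1.01 against 0.29. Mt2, a metal-binding metallothionein, was at 370 CPM in air, 82.2 at 1 ppm and 74.4 at 1.5 ppm, and Mt1 at 1451, 763 and 575 CPM. The Mt2 ratio was 0.222 at 1 ppm (0.195 to 0.253) and 0.201 at 1.5 ppm (0.188 to 0.216), with 0.207 and 0.214 in the other macrophages. Ferritins and metallothioneins have processed or close copies, which could take part of their reads.

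The other named genes lower at 1.5 ppm were Dnah11, Arl4c, Acaa1b, Adam22 and Patj. Dnah11, a dynein heavy chain known from cilia, was at 74.8, 37.6 and 23.7 CPM, a ratio of 0.316 (0.275 to 0.365). Acaa1b, a peroxisomal thiolase of fatty acid oxidation, was at 58.4, 26.6 and 20.8 CPM, a ratio of 0.357 (0.305 to 0.418), against 0.354 in the others. Patj, a scaffold protein of cell polarity, was at 324, 185 and 126 CPM, a ratio of 0.387 (0.363 to 0.413). In each of these 3 genes the 1 ppm level lay between air and 1.5 ppm. Sdk1 was also lower, from 372 CPM in air to 172 and 176 CPM, whereas in the other macrophages it was at 1.88, 2.28 and 5.01 CPM.

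**Figure D5:**
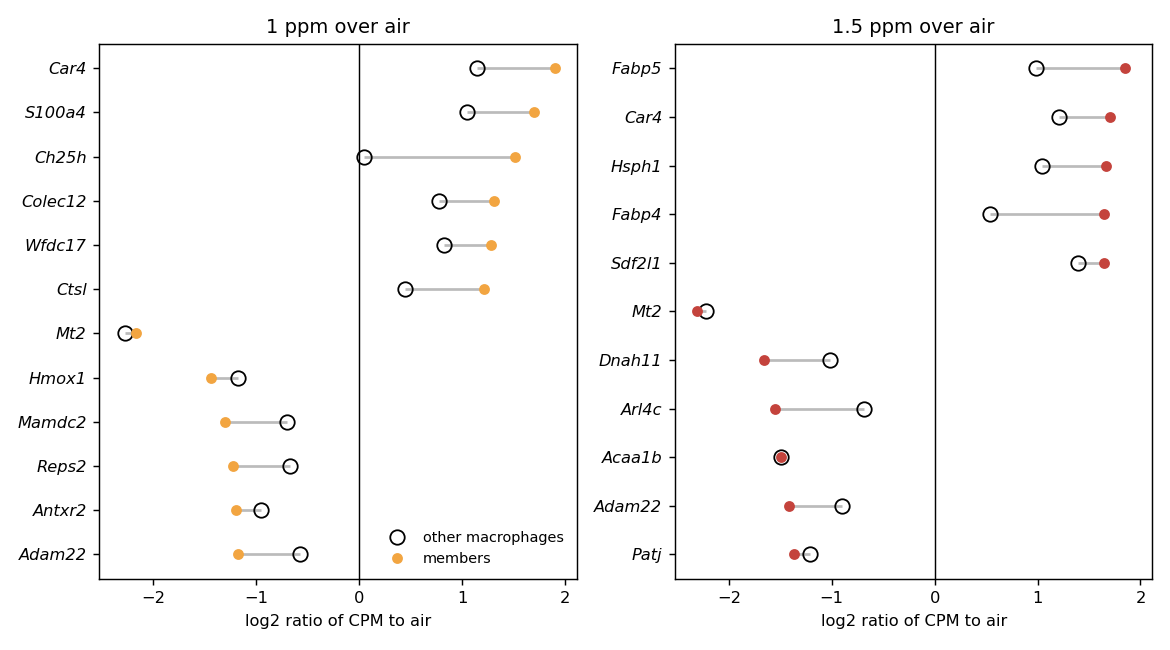
Log2 difference in CPM from the air library (horizontal axis) for the named genes (vertical axis) at 1 ppm and at 1.5 ppm, with filled points for dividing macrophages and hollow points for the others. Mt2 lies near the same value in both, -2.16 and -2.27 at 1 ppm, while Fabp4 lies at 1.65 in dividing and 0.54 in other macrophages at 1.5 ppm.

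Of the 6 genes named as higher at 1 ppm past the minimums of 50 CPM and 100 UMIs, Car4 was furthest above air. Car4, a membrane-bound carbonic anhydrase, was at 112 CPM in air, 419 at 1 ppm and 364 at 1.5 ppm. The ratios were 3.75 (3.38 to 4.18) and 3.26 (2.97 to 3.59), against 2.21 and 2.31 in the other macrophages. S100a4, a calcium-binding protein, was high at 1 ppm alone, at 17.2, 56.5 and 17.3 CPM. Ctsl, a lysosomal cysteine protease, was at 70.0, 163 and 113 CPM, and Wfdc17, a small secreted inhibitor-like protein, at 36.6, 89.0 and 79.4 CPM. Colec12, a scavenger receptor, and Ch25h, which makes 25-hydroxycholesterol, were at 67.4 and 53.8 CPM at 1 ppm against 27.1 and 18.6 CPM in air, but 1 cell held 26.8% of the Colec12 UMIs and 22.5% of the Ch25h UMIs there. In the 82, 65 and 250 dividing cells with 2.5 to 4% mitochondrial UMIs, the Colec12 difference was 0.10 on the log2 scale in place of 1.31. Hmox1, the heme oxygenase, was lower at both doses, at 405, 149 and 193 CPM, a ratio at 1 ppm of 0.369 (0.333 to 0.408), together with Mamdc2, Reps2, Antxr2 and Adam22.

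For antigen presentation genes, dividing and other macrophages lay on different sides of air at 1 ppm. In dividing macrophages 7 of 7 measured class II presentation genes were above air, 1 of them 2-fold, with a median of 0.61. Of all 9324 genes measured by the lists' filter at 1 ppm, 3796 were above air and 56 at least 2-fold, with a median of -0.0830. In the other macrophages 3 of 10 class II genes were above, beside 5283 of all 12583, and the median was -0.24, or -0.02 by mean UMIs per cell, against 0.91 in dividing cells on that scale. H2-Aa, a class II alpha chain, was at 68.0, 104 and 115 CPM in dividing cells and 116, 90.6 and 134 CPM in the others. Cd74, the class II chaperone, was at 190, 308 and 251 CPM against 290, 264 and 293 CPM. In air the dividing cells had the lower level of both genes, and at 1 ppm the higher. The summed level of conventional dendritic cell markers, whose cells are rich in class II, was 8.96, 7.99 and 12.7 CPM in dividing macrophages and 31.9, 13.8 and 22.8 CPM in the others. The part of such cells in the difference was not tested beyond leaving out dividing cells with 3 or more markers of another class. At 1.5 ppm the class II list lay above air in both, in 7 of 9 genes of dividing macrophages (median 0.44) and 8 of 11 of the others (0.16). Repair and alternative activation genes were above air at 1 ppm in 11 of 11 cases, with a median of 0.59, and in 9 of 14 in the others, with a median of 0.23. At 1.5 ppm the medians were 0.47 and 0.49.

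The mitotic genes themselves took a smaller share of mRNA in dividing macrophages at 1.5 ppm. All 24 spindle and cytokinesis genes were below air there, 17 of them by at least 1.5-fold. Of all 11189 genes measured by the lists' filter, 7196 were below air and 1147 by at least 1.5-fold. The spindle list median was -0.66, or -0.48 when the dividing cells were weighted to the score distribution in air. All 21 kinetochore and checkpoint genes were below air, with a median of -0.48, or -0.31 with the same weights. Cdc20 was at 90.8, 88.2 and 42.8 CPM. In the other macrophages the same 2 lists were above air, with medians of 0.62 and 0.43. The rule places any cell past 0.1% in the dividing class, so the effect of the choice and of the dose on these genes cannot be told apart. The histone genes went the other way, with a median of 0.76 and H2ac24 at 142, 196 and 318 CPM. Of 31 genes lower at 1.5 ppm, 24 stayed 2-fold lower when the dividing cells were weighted to the score distribution in air.

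The genes whose ozone response differed most between dividing and other macrophages, 5 in each direction and dose by the naming rule, mostly rested on few UMIs. H2-Eb1, a class II beta chain, was at 18.6, 38.8 and 43.5 CPM in dividing cells and 46.4, 34.6 and 52.8 CPM in the others, a difference of 1.47 at 1 ppm. Il1b, the inflammatory cytokine interleukin 1 beta, was at 4.12, 25.7 and 25.9 CPM in dividing cells, with 17 UMIs in air, a difference of 1.32 at 1 ppm. Ch25h and Cxcl10 were on the higher side as well, at 1.47 and 2.34, where Cxcl10 had 1 UMI in the other macrophages at 1 ppm. Pif1 also met the rule, but had 3 and 0 UMIs in the other macrophages, and no difference is given. On the lower side at 1 ppm were Hspa1b at -3.62, of which 1 air cell held 77.2% of the UMIs, Cdkn2a at -1.48, Sdk1 at -1.39, Kif14 at -1.33 and D3Ertd751e at -1.30. At 1.5 ppm the higher side held Ccl17 at 3.34, with 4 UMIs in air, Areg at 1.94, with 1 UMI in air and a ratio in dividing cells of 17.5 (3.07 to 699), Akap5 at 1.64, Eif4e3 at 1.60 and Gask1b at 1.46. The lower side held Rsad2 at -3.61, Cxcl10 at -3.37, Smtn at -3.12, Ndrg1 at -2.92 and Fam83d at -2.67. In Cxcl10, 1 cell held 93.5% of the air UMIs.

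Markers of other airspace cells made up small shares of UMIs in dividing macrophages. Their part in the results was not tested beyond leaving out barcodes with 3 or more markers of another class. The summed neutrophil markers were at 63.9, 58.9 and 47.3 CPM against 66.8, 61.0 and 65.2 CPM in the others, with Retnlg at 0 in all 3 libraries. Cells with 3 or more neutrophil markers were 4.02%, 6.03% and 3.04% of dividing macrophages, against 1.41%, 1.70% and 1.17% of the others. Dividing cells also held more UMIs per cell (above). T and NK cell markers summed to 151, 107 and 105 CPM against 150, 144 and 131 CPM, and Nkg7 was at 0. Of these 7 markers, only Cd2 had any UMI in dividing cells in air, and only Cd2 and Cd3d at 1 ppm. Dividing cells with 3 or more of them numbered 0, 0 and 2. Monocyte and interstitial macrophage markers summed to 23.7, 29.3 and 22.8 CPM, with Ly6c2 at 0, and B cell markers to 0.484, 0 and 0.257 CPM. Cells with 3 or more of the monocyte markers were 0%, 2.59% and 0.217% of dividing macrophages, against 0.482%, 0.150% and 0.443% of the others. Epithelial markers were the class that differed most at 1.5 ppm, at 65.9, 48.8 and 97.5 CPM in dividing cells against 129, 90.6 and 1359 CPM in the others. Red cell markers summed to 6.30, 0.592 and 76.0 CPM against 18.8, 0.263 and 27.5 CPM. Cells above 40000 UMIs, where 2 cells may share a droplet, were 4.60%, 15.5% and 11.8% of dividing macrophages and 0.257%, 1.50% and 2.10% of the others. Without them the share of dividing macrophages at 1.5 ppm was 15.5%.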

How the data were processed

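The deposited files hold raw UMI counts per gene and barcode for 3 lavage libraries, which the authors produced using Cell Ranger 8.0.0 and GRCm39 (mm39), per the submitters' processing notes. Filtering before deposit and intron counting are not given in the sources used here. Counts of 33696 identifiers were summed over 26 repeated symbols to 33670 genes. UMIs were summed over dividing and other macrophages of each library and scaled to CPM, with log2 ratios taken after adding 1 UMI. Ratios carry exact conditional 95% intervals, CPM exact Poisson and shares Clopper-Pearson intervals; ratios of shares have log-normal ones. With 1 library per group no test was run.

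A gene was counted between cell classes at 1.5-fold in all 3 libraries and 50 CPM, and between doses at 2-fold, 50 CPM and 100 UMIs. The 34 lists (8 of the cell cycle, 159 genes) used minimums of 20 CPM and, between doses, 50 UMIs. Named genes were the 12 highest and 12 lowest outside the cell cycle lists by the library nearest 0, the 6 highest and 6 lowest at each dose, the 5 largest differences in dose response each way, the rule genes, the markers, and up to 4 members of a list; 1 gene that met this rule is not reported here. Members and lists were chosen with earlier results of these data known. No doublet caller was run, and cells over 40000 UMIs were left out as an alternative. Thinning to 5000 UMIs used seed 1. The procedure was tested on simulated data. The tools were scipy 1.17.1, numpy 2.4.6, pandas 2.3.3 and matplotlib 3.10.9 under Python 3.11.15.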

Additional observations from a re-analysis of the deposited data

Results flagged for a closer look

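In 10 of the genes named for their ozone response, the dividing and the other macrophages of an ozone library lay on opposite sides of their air levels. None of these differences was tested, and most rest on few UMIs. Cdkn2a, which encodes the CDK inhibitor p16 and the p53 stabiliser Arf, was at 21.6 CPM in dividing macrophages in air and 13.0 at 1 ppm, and at 0.611 and 1.05 CPM in the others, a difference in log2 response of -1.48. At 1 ppm the difference was also 1.47 for H2-Eb1, a class II beta chain, -1.39 for Sdk1, a cell adhesion protein, and -1.33 for the kinesin Kif14, which had 10 UMIs in the others in air. At 1.5 ppm the difference was -3.61 for the interferon-induced gene Rsad2, where 1 cell held 97.0% of the air UMIs and 1 cell 93.2% of those at 1.5 ppm. It was -3.12 for Smtn, a protein of the actin cytoskeleton, at 11.6 and 2.96 CPM in dividing cells and 0.0873 and 0.224 CPM in the others. It was -2.92 for Ndrg1, a stress-responsive gene, at 6.30 and 3.22 CPM against 0.851 and 3.29 CPM. It was -2.67 for Fam83d, a spindle protein, at 33.2 and 17.0 CPM against 0.0655 and 0.269 CPM, with 3 UMIs in the others in air. For the chemokines Ccl17 and Cxcl10 it was 3.34 and -3.37, where the others lay close to air, at a log2 difference of -0.11 and 0.12.

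Barcodes outside the gate also carried late-cycle mRNAs. Of 62 barcodes at 1.5 ppm with more than 10% mitochondrial UMIs and at least 3 macrophage markers, 21 had the 12 late-cycle genes at 0.1% of UMIs or more, a share of 33.9% (22.3 to 47.0). The same held for 51 of 747 in air (6.83%) and 21 of 386 at 1 ppm (5.44%).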

How the results depend on the processing

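With 1 pooled library per dose, neither mice nor libraries could be left out, and depth limits genes under about 50 CPM. No paired analysis was possible because each group is 1 library and no result comes from a test. The alternatives by mean UMIs per cell, for dividing cells low in replication mRNAs, by score weighting, without the top cell and without mixed barcodes were chosen after seeing the data. Of 103 alternatives for shares and counts 69 kept their size and 34 did not. The share of dividing macrophages was 6.97% in air and 19.8% at 1.5 ppm with a threshold of 0.05%, and 4.41%, 4.11% and 12.8% in air, 1 ppm and 1.5 ppm with 0.2%. With only cells of 2.5 to 4% mitochondrial UMIs it was 6.35%, 6.78% and 15.9%, and the ratio of 1.5 ppm to air 2.503. From 10000 UMIs it was 6.33% in air and 20.6% at 1.5 ppm, and without cells over 40000 UMIs 15.5% at 1.5 ppm. Genes higher and lower in dividing macrophages numbered 654 and 147 with 20 CPM as minimum, 1138 and 424 with none, 1989 and 0 by mean UMIs per cell, and 126 (97 shared) and 48 (22 shared) with only the dividing cells low in replication mRNAs. The lower count was 36 when weighted for depth and 131 with a threshold of 0.2%. At 1 ppm against air, higher and lower genes numbered 26 and 33 at 20 CPM and 50 UMIs, 270 and 293 with no CPM minimum, and 13 and 42 within 2.5 to 4% mitochondrial UMIs, and 13 were higher when scaled to UMIs outside cell cycle, mitochondrial and ribosomal protein genes. At 1.5 ppm they numbered 54 and 59 at 20 CPM and 50 UMIs and 618 and 580 with no CPM minimum, and 56 were lower within 2.5 to 4% mitochondrial UMIs.

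By mean UMIs per cell, medians changed sign to 0.34 for growth factor signalling, 0.32 for macrophage identity, 0.39 for maturation, 0.23 for LXR targets, 0.18 for lipid uptake, 0.18 for efferocytosis and 0.0607 for immediate early genes. With only the dividing cells low in replication mRNAs they changed to -0.0936 for the G1 cyclin and CDK inhibitor list and -0.0729 for ribosome biogenesis. The medians there were -0.00993 for p53 targets, 0.00363 for LXR targets and 0.00655 for lipid uptake, and Neil3 changed to -0.0405. Cxcl10, a chemokine whose air UMIs came 93.5% from 1 cell, changed at 1 ppm to 0.85 with a threshold of 0.2% and 0.18 without its top cell, and at 1.5 ppm to 0.74 with that threshold. Rsad2 changed to 1.98 with that threshold. The cause was not tested beyond these values.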

Other observations

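Some genes outside the lists' main directions were higher in dividing macrophages relative to the others. In the p53 target list, 9 of 10 measured genes were above 0 in all 3 libraries, beside 2440 of all 6801 genes. The medians were 0.49, 0.32 and 0.39, but the median nearest 0 was -0.00993 with only the dividing cells low in replication mRNAs. Trem2, a lipid-sensing receptor, had log2 differences of 0.50, 0.78 and 0.50 within a clearance list that was otherwise below 0. Between doses, all 24 measured cholesterol synthesis genes of dividing macrophages were above air at 1.5 ppm, with a median of 0.58 against 0.81 in the others. Spp1, which encodes osteopontin, was at 365, 582 and 768 CPM in dividing macrophages of the air, 1 ppm and 1.5 ppm libraries. In the others it was at 220, 367 and 533 CPM. Its log2 difference at 1.5 ppm was 1.07 in dividing cells against 1.27 in the others. Cd63, a tetraspanin of lysosomes, was at 99.5, 164 and 249 CPM, a log2 difference at 1.5 ppm of 1.32 against 0.37 in the others.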
